A study of Rattus norvegicus with 24 samples.

Results

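The 32 potassium channel genes examined here are those genes of the deposited series table whose transcript has exactly 1 RefSeq symbol starting with Kcn, out of 5750 genes named in that table. They cover pore-forming subunits of voltage-gated channels (8 genes from Kcna to Kcnh), inward rectifiers (4 Kcnj genes), leak channels with paired pore domains (3 Kcnk genes), Kcnq3, the electrically silent subunits Kcns1 and Kcns3, the Kcnip proteins that bind channels of the Kcnd family (3 genes), and 11 others, which are accessory subunits (Kcnab1, Kcnab2, Kcnab3, Kcne2, Kcne3, Kcne4, Kcnmb1, Kcnmb4) and the channels Kcnma1, Kcnn4 and Kcnt1. Within the series table the rule used the symbol alone, and a measured level decided only which transcript stood for a gene. How transcripts were chosen for the series table is not given. Kcnc2 had 2 transcripts, of which the brighter was kept. A further 44 Kcn genes are only in the tables of the array platforms and were used for 1 alternative. Their mean intensity was 10.4 to 292.7 units, against 253.7 to 24947.5 for the 32 members, so the members are largely the brighter Kcn genes.

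RNA was measured with Cy3-labelled 1-colour arrays in spiral ganglia of Sprague-Dawley rats of both sexes, in 24 samples that form 8 groups of 3 biological replicates. The groups are P60 deaf base, P60 deaf apex, P60 hearing base, P60 hearing apex and the same 4 at P32, where P is the postnatal day and base and apex are the basal and apical portions of the ganglion. Deaf rats had received kanamycin, an aminoglycoside antibiotic that destroys hair cells, at 400 mg/kg by intraperitoneal injection on each day from P8 to P16. Hearing rats were littermates without any injection, so an effect of kanamycin on other cells and an effect of the lost hair cells cannot be told apart. Each sample pooled 4 to 6 ganglia, from which bone, spiral ligament and organ of Corti had been dissected away. Replicate 1 of every group was on an array platform with 8 samples, and replicates 2 and 3 were on a platform with 16.

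Potassium channels let potassium leave a neuron and so set its resting potential, end each action potential and limit how fast it can fire. In the auditory nerve, low-threshold Kcna channels restrict firing to the onset of a stimulus, and Kcnc channels allow rapid repeated spikes. Glia, epithelia and immune cells use other members, among them inward rectifiers that take up potassium released by active neurons and calcium-activated channels of lymphocytes and macrophages.

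Markers of spiral ganglion neurons, of which 20 of 22 were in the table, had a list mean between 11.52 and 12.97 log2 units in all 24 samples. The list mean was 12.64 to 13.57 for Schwann cell markers and 11.85 to 13.64 for bone and cartilage markers. No other tissue was measured, so these levels cannot check the ganglion label. Only 3 of 11 hair cell markers were in the table. Median intensity over transcripts was 1997 to 2263 units per sample, and precision is set by how many arrays a group has. P32 hearing apex replicate 1 stood apart from its group, in genes typical of the base and in others. The mean of 7 markers of central glia was 12.46 log2 units in it, against 9.94 and 11.18 in replicates 2 and 3. Its mean of 12 macrophage and T cell markers was 13.07, against 11.05 and 11.34, and hearing basal samples reached at most 12.37. Its Kcns3 (10.53) and Kcnk1 (10.97) were below every hearing basal sample. This sample counts as hearing apex throughout, as labelled, and values without it are given where it decides a call. Since the tissue is bulk, fewer cells of a type and less RNA per cell cannot be told apart.

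The promoters of 3 genes on which the results turn are shown first, each from 250 bases before to 50 bases after the start (RefSeq, build GRCr8, 5′ to 3′ on the gene's own strand). They are Kcnj13 at chr9:95518937-95519236 and Kcnip1 at chr10:19092976-19093275, which differed between base and apex in opposite directions, and Kcns3 at chr6:39584056-39584355, which had the smallest p of the members between deaf and hearing ganglia. All 3 lie on the minus strand. Capitals mark matches to the TATA box TATAAA, the GC box GGGCGG or the AP-1 motif TGANTCA on either strand.
Kcnj13: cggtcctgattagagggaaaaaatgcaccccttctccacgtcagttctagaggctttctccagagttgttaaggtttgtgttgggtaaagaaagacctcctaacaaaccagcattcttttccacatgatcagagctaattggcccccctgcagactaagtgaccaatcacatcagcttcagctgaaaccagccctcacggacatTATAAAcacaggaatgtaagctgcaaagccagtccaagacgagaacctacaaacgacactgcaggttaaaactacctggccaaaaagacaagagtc
Kcnip1: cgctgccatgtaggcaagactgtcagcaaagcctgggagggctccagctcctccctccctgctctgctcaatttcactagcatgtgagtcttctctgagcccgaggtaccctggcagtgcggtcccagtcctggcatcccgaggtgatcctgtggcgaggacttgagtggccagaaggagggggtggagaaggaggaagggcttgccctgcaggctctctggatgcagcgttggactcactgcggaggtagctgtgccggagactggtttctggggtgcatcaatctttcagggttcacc
Kcns3: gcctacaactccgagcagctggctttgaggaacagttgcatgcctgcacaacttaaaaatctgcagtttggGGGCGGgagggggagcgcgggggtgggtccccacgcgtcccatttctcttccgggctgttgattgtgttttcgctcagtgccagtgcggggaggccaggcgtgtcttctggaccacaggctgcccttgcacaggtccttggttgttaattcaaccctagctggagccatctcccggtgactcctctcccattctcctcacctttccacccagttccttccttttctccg
The Kcnj13 promoter held TATAAA at base 205 of its 300 bases, and it was the only 1 of the 23 members with a promoter in the RefSeq table to do so, while 14.3% of 27457 promoters did. The Kcns3 promoter held GGGCGG, as did 11 of the 23 members and 34.9% of all promoters. The Kcnip1 promoter held none of the 3 motifs, and TGANTCA was in 1 member promoter, that of Kcnj16, and in 7.33% of all promoters. G and C made up 46.3% of the Kcnj13 window, 60.3% of the Kcnip1 window and 58.3% of the Kcns3 window, against a median of 52.3% over all promoters.

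The basal and apical portions were compared to ask which channel genes follow the position along the cochlea. Kcnj13, an inward rectifier best known from transporting epithelia such as choroid plexus and retinal pigment epithelium, was higher in the base in both deaf and hearing ganglia. Kcnip1, which encodes a calcium-binding partner of Kcnd channels, was lower in the base of deaf ganglia. No other member passed the test in either condition. Tests are limma fits over all 5750 genes, two-sided, with Benjamini-Hochberg adjustment over those genes and a threshold of 0.05, and differences are on the log2 scale with their SE. Base over apex in deaf rats, 2.02% of all genes passed (1.86% higher in the base and 0.157% lower), and in hearing rats 1.5% passed.

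Kcnj13 had 13.26, 13.29 and 12.79 log2 units in the P60 deaf base, against 11.98, 9.92 and 11.74 in the P60 deaf apex. At P32 it had 13.33, 13.23 and 12.99 in the deaf base, against 11.86, 11.23 and 11.20 in the deaf apex. Every deaf basal sample thus lay above every deaf apical one, as for 1.57% of all genes. The difference was 1.82 ± 0.34 over both ages (3.54-fold, adjusted p = 0.00531 by limma, higher in 6 of 6 pairs of the same replicate number), with means of 13.15 ± 0.21 in the base and 11.32 ± 0.76 in the apex (SD, n = 6 each).

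In hearing rats Kcnj13 had 13.64, 12.95 and 12.78 log2 units in the P60 base, against 10.82, 11.41 and 9.41 in the P60 apex. At P32 it had 13.21, 13.22 and 12.56 in the hearing base, against 13.26, 11.67 and 11.13 in the hearing apex. The only overlap came from P32 hearing apex replicate 1, the apical sample at 13.26. The difference was 1.78 ± 0.34 (3.43-fold, adjusted p = 0.0118 by limma, higher in 5 of 6 pairs). With the 16 samples of the larger platform alone it was 2.05 in deaf rats and 1.97 in hearing rats, with adjusted p of 0.106 and 0.102, so both calls were lost there while the differences were at least as large. No single left-out sample ended either call.

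Kcnip1 ran the other way. It had 8.11, 7.69 and 8.39 log2 units in the P60 deaf base, against 9.06, 8.97 and 9.74 in the P60 deaf apex. At P32 it had 7.02, 7.48 and 7.97 in the deaf base, against 8.03, 8.55 and 9.29 in the deaf apex. Within each age all 3 basal samples lay below all 3 apical ones, and the share of all genes that did so was not computed. Over both ages the portions overlapped, with up to 8.39 in the base and down to 8.03 in the apex. The difference was −1.16 ± 0.29 (adjusted p = 0.0405 by limma, lower in 6 of 6 pairs).

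Kcnip1 was dim, with a mean of 8.26 log2 units over 24 samples, at percentile 4.9 of all genes. Its call in deaf rats is close to the threshold. It was lost on the larger platform alone (−1.26, adjusted p = 0.171 by limma), without the platform term (−1.16, adjusted p = 0.0822), with quantile normalization (−1.26, adjusted p = 0.0668) and over all transcripts (−1.16, adjusted p = 0.0611), where the difference was at least as large. It was kept in 9 of 24 fits that left out 1 sample each, and the highest adjusted p was 0.143. The samples whose removal ended it were every deaf sample but P60 deaf apex replicate 2, and P60 hearing apex replicate 1, P60 hearing base replicates 1 and 3 and P32 hearing base replicate 3, with differences from −1.27 to −1.03 over all 24 fits. In hearing rats Kcnip1 ranged from 7.17 to 7.98 (median 7.86) in the base and from 6.91 to 9.65 (median 8.78) in the apex, the lowest apical value being P32 hearing apex replicate 1. The difference there was −0.87 ± 0.29 and missed the threshold (adjusted p = 0.193 by limma), while without that sample it was −1.13 ± 0.26 (adjusted p = 0.0141). The fit without that sample called 278 genes higher and 39 lower in the hearing base, against 82 and 4 with all samples.

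**Figure D1:**
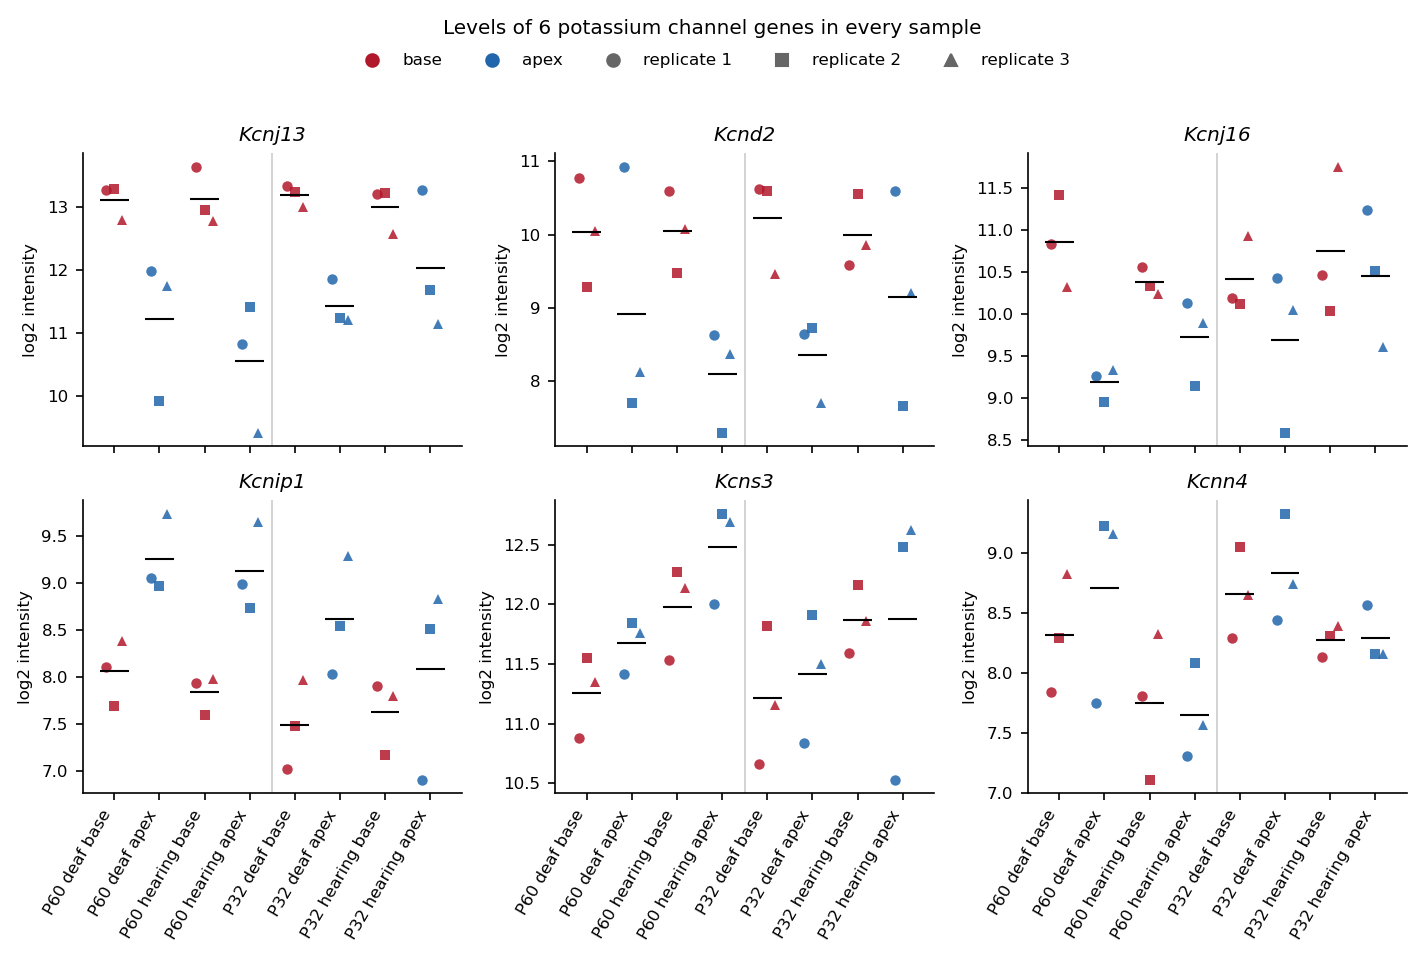
Log2 intensity (vertical axis) of 6 potassium channel genes in each of the 24 samples, with the 8 groups along the horizontal axis, colours for base and apex, marker shapes for replicate number and black lines for group means. Basal samples are high for Kcnj13 (12.56 to 13.64) and low for Kcnip1 (7.02 to 8.39), and P32 hearing apex replicate 1 lies within the basal range for Kcnj13 (13.26) and below it for Kcnip1 (6.91).

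Kcnd2, the pore subunit of the transient A-type current to which Kcnip proteins attach, was on the other side from Kcnip1. It ranged from 9.28 to 10.77 log2 units (median 10.32) in the deaf base and from 7.69 to 10.93 (median 8.38) in the deaf apex. The top of the apical range was a single sample, P60 deaf apex replicate 1, and the other apical values were at most 8.72. The difference of 1.5 ± 0.43 missed the threshold (adjusted p = 0.101 by limma) and was 1.87 ± 0.40 (adjusted p = 0.0205) without that sample. In hearing rats Kcnd2 ranged from 9.47 to 10.60 in the base (median 9.96) and from 7.29 to 10.59 in the apex (median 8.50). Its difference of 1.40 ± 0.43 (adjusted p = 0.141 by limma) became 1.62 ± 0.45 (adjusted p = 0.0444) without P32 hearing apex replicate 1, its highest apical sample. Without that sample 278 genes were called higher and 39 lower in the hearing base, against 82 and 4 with all samples.

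Kcnip4, another Kcnd partner, had base over apex differences of 1.49 ± 0.58 in deaf and 1.32 ± 0.58 in hearing ganglia (adjusted p = 0.289 and 0.44 by limma, higher in 5 of 6 pairs in each). Its values ran from 7.74 to 10.76 in the deaf base and from 6.75 to 8.94 in the deaf apex. The third partner, Kcnip2, had −0.19 ± 0.36 in deaf and −0.01 ± 0.36 in hearing ganglia. The 3 Kcnip genes thus gave differences of both signs, of which 1 passed in deaf rats and none in hearing rats (1 Kcnip gene, Kcnip1, had an unadjusted p of 0.00703 there).

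Kcnj16, an inward rectifier that forms channels with Kcnj10 in astrocytes and kidney, ranged from 10.12 to 11.42 log2 units (median 10.58) in the deaf base and from 8.59 to 10.43 (median 9.31) in the deaf apex. The difference was 1.20 ± 0.35 (adjusted p = 0.102 by limma, higher in 5 of 6 pairs), and 1.20 ± 0.30 with adjusted p = 0.0477 without P32 hearing base replicate 3. In hearing ganglia it was 0.48 ± 0.35 (adjusted p = 0.841). The deaf and hearing differences were not shown to differ (0.72 ± 0.49, adjusted p = 1 by limma). The other inward rectifiers were Kcnj8, a subunit of channels closed by ATP, at −0.14 ± 0.17 in deaf and −0.09 ± 0.17 in hearing ganglia, and Kcnj12, a classical strong rectifier, at −0.39 ± 0.34 and −0.54 ± 0.34.

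Kcne3, a small accessory subunit, differed by 1.11 ± 0.40 in deaf and 0.72 ± 0.40 in hearing ganglia (adjusted p = 0.234 and 0.674 by limma). Among the leak channels Kcnk1 had −0.64 ± 0.29 in deaf and −0.54 ± 0.29 in hearing ganglia, Kcnk2, which responds to stretch and lipids, had 0.69 ± 0.36 and 0.47 ± 0.36, and Kcnk13 had 0.05 ± 0.26 and −0.14 ± 0.26. Of the fast-firing channels, Kcnc1 had −0.94 ± 0.48 in deaf and −0.86 ± 0.48 in hearing ganglia, whereas Kcnc2 had 0.70 ± 0.50 and −0.06 ± 0.50, and neither passed. Kcna1, the low-threshold subunit, had −0.28 ± 0.16 and −0.19 ± 0.16.

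Over the 32 members, 21 had a difference below 0 in deaf rats (median −0.19) and 24 in hearing rats (median −0.22), where 57.3% and 57.2% of all genes were below 0 (medians −0.04 in both). An unadjusted p under 0.05 was found for 9 members in deaf rats and 4 in hearing rats, that is among 10.3% and 9.44% of all genes. The sign was the same in deaf and hearing rats for 27 of 32 members (84.4%), and for 76.1% of all genes.

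**Figure D2:**
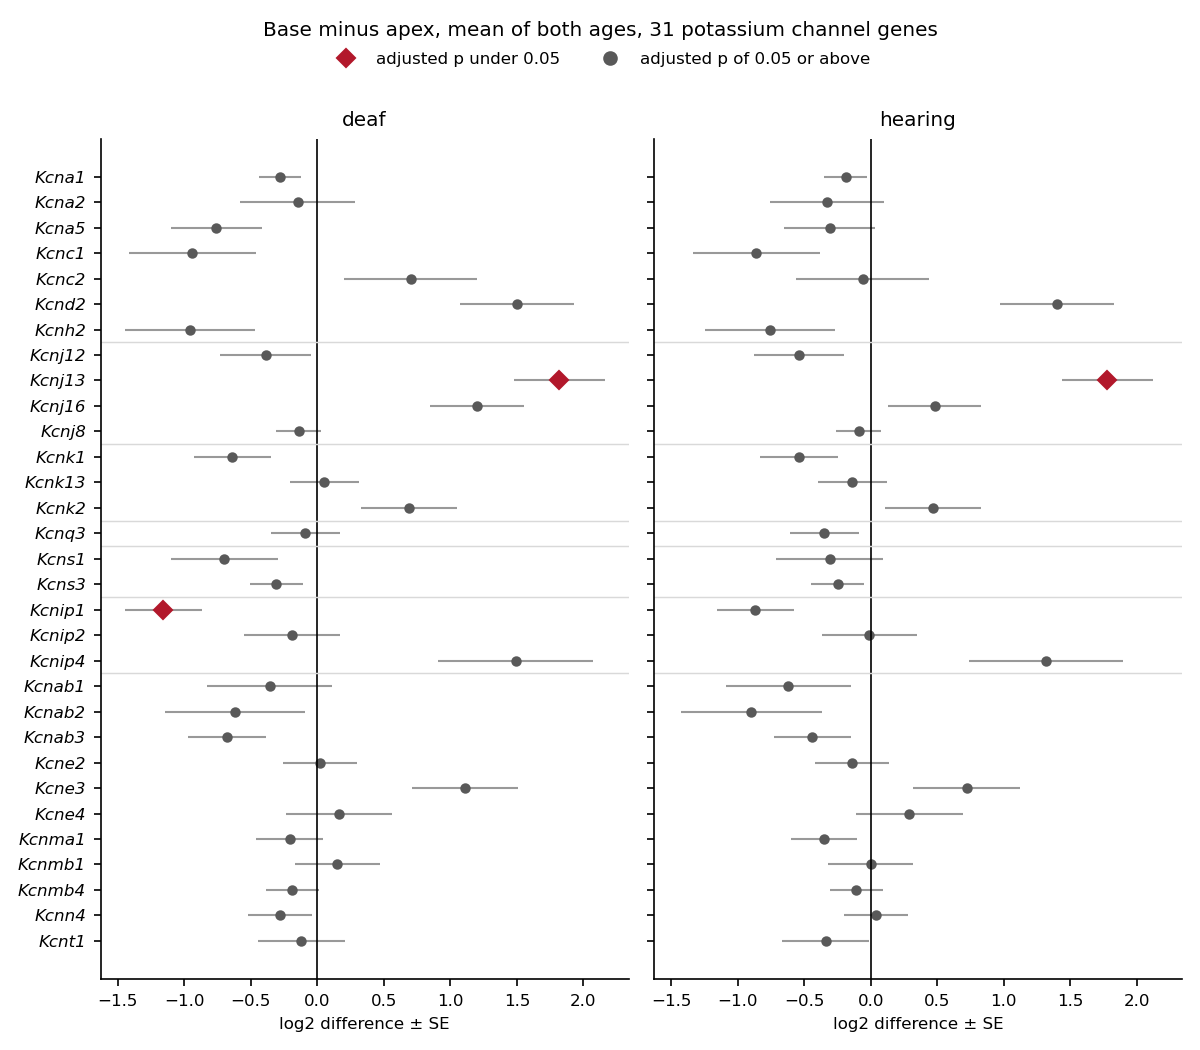
Base minus apex difference (log2, horizontal axis, bars are SE) for 31 of the 32 genes, grouped by subfamily, in deaf (left) and hearing (right) ganglia. Kcnj13 stands to the right at 1.82 and 1.78, Kcnip1 is called on the left in deaf ganglia alone at −1.16, and the difference between the conditions for Kcnip1 was not called (−0.29 ± 0.40, adjusted p = 1 by limma).

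A fit that treats both portions of the same age, condition and replicate number as a random block (estimated correlation 0.629) called 8 members between deaf base and apex, namely Kcnj13, Kcnj16, Kcnd2, Kcne3 and Kcnip4 higher and Kcnip1, Kcnc1 and Kcna5 lower. It called Kcnj13, Kcnd2 and Kcnip1 in hearing rats. The same fit called 10.2% and 9.37% of all genes.

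Markers of central glia, the oligodendrocytes and astrocytes of the nerve root, moved with these differences. All 7 measured markers of 8 had a positive base over apex difference in both conditions, with a median of 2.20 in deaf and 1.97 in hearing ganglia. In deaf ganglia 5 were called (Aqp4, Gfap, Mobp, Mog and Slc1a2), and in hearing ganglia 4. Their list mean ran from 11.75 to 12.86 log2 units in the deaf base, against 9.18 to 10.69 in the deaf apex, and from 11.80 to 12.36 in the hearing base, against 8.74 to 12.46 in the hearing apex. The 12.46 belongs to P32 hearing apex replicate 1, the sample in which Kcnj13 was also highest and Kcnip1 lowest of the apical hearing samples. The part of these cells in the Kcnj13, Kcnd2 and Kcnip1 differences was not tested. Neuron markers were below 0 for 16 of 20 in deaf and 18 of 20 in hearing ganglia, with Calb1 called higher in both, and their part was not tested.

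Markers of other cells also differed between base and apex. Macrophage and T cell markers were above 0 for 10 of 12 in deaf (median 0.29) and 12 of 12 in hearing ganglia (median 0.75, with Cd74, which encodes the invariant chain of antigen presentation, called higher). Blood markers had medians of 0.79 in deaf and 0.95 in hearing ganglia, and 3 of 4 epithelial markers were above 0 in each (medians 0.32 and 0.40), with none called by limma in either list. In hearing ganglia the bone marker Bglap, the Schwann cell list's Fabp7 and the stria list's Car3 were each called higher in the base, while the medians of their lists were 0.34, 0.08 and 0.30. The part of these cells in the Kcnj13 and Kcnip1 differences was not tested.

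**Figure D3:**
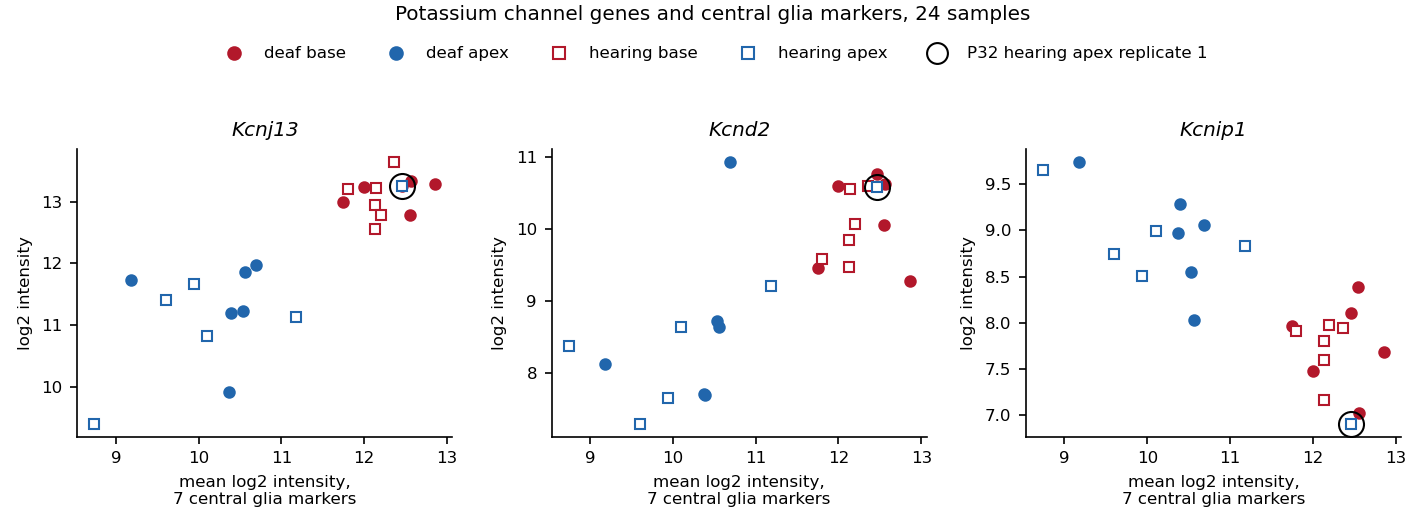
Log2 intensity of Kcnj13, Kcnd2 and Kcnip1 (vertical axes) against the mean log2 intensity of 7 central glia markers (horizontal axis) in 24 samples, filled for deaf, open for hearing, red for base and blue for apex. The circled sample, P32 hearing apex replicate 1, lies at 12.46 on the marker axis, within the basal range of Kcnj13 (13.26) and Kcnd2 (10.59) and below the basal samples for Kcnip1 (6.91).

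Deaf and hearing ganglia were compared to ask which channel genes differ after hair cells are lost. At P60 no member passed the limma test, where 1.34% of all genes did, and 5 members had an unadjusted p under 0.05, as had 12.3% of all genes. At P32 no member passed, where 0.0174% of all genes did, and 1 member, Kcns3, had an unadjusted p under 0.05, as had 3.48% of all genes. Kcns3 was nearest to the threshold at both ages. It encodes a subunit that forms no channel alone and changes the gating of Kcnb channels.

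Kcns3 had 10.88, 11.55 and 11.35 log2 units in the P60 deaf base, against 11.53, 12.27 and 12.14 in the P60 hearing base. In the apex it had 11.42, 11.84 and 11.76 in P60 deaf ganglia, against 12, 12.76 and 12.69 in P60 hearing ganglia. In the apex every deaf sample was below every hearing one, as for 4.43% of all genes, whereas in the base the groups overlapped, with 1 deaf sample (11.55) above 1 hearing sample (11.53). The difference over both portions was −0.77 ± 0.20 (0.587-fold, adjusted p = 0.0635 by limma, lower in 6 of 6 pairs), with means of 11.47 ± 0.34 in deaf and 12.23 ± 0.46 in hearing ganglia (SD, n = 6 each).

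At P32 Kcns3 had 10.66, 11.82 and 11.16 in the deaf base, against 11.59, 12.16 and 11.86 in the hearing base. It had 10.84, 11.91 and 11.50 in the deaf apex, against 10.53, 12.48 and 12.62 in the hearing apex. The value of 10.53, the lowest Kcns3 value of all 24 samples, again belongs to P32 hearing apex replicate 1. The difference at P32 was −0.56 ± 0.20 (adjusted p = 0.955 by limma, lower in 5 of 6 pairs).

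Leaving P32 hearing apex replicate 1 out of the fit lowered the SE of Kcns3, which was then called at P60 (−0.77 ± 0.13, adjusted p = 0.00328 by limma), in the P60 apex (−0.81 ± 0.19, adjusted p = 0.0356) and at P32 (−0.79 ± 0.14, adjusted p = 0.0215). Without that sample 140 genes were called higher and 31 lower at P60, against 68 and 9 with all samples. In the P60 apex the counts were 105 and 12, against 26 and 3, and at P32 they were 34 and 4, against 0 and 1. Kcns3 was also called at P60 without P32 hearing apex replicate 3 (adjusted p = 0.0436 by limma), where 86 genes were called higher and 12 lower. With replicate number as a block Kcns3 and Kcnma1 were called at P60 (adjusted p = 0.0363 each by limma), as were 3.1% of all genes. With both portions as a random block, a fit that called 3 genes higher and 1 lower at P60, the adjusted p of Kcns3 there was 0.953 by limma. On the larger platform alone it was 0.142. The lower level in deaf ganglia therefore had the same sign in each age and portion, and whether it passed rested on single samples and on the model of the spread.

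Kcnn4, a calcium-activated channel known from T cells, macrophages and red cells, was the member with the largest positive difference at P60. It ranged from 7.75 to 9.23 log2 units (median 8.56) in deaf ganglia and from 7.11 to 8.33 (median 7.69) in hearing ganglia. The difference was 0.82 ± 0.24 (1.76-fold, adjusted p = 0.119 by limma, higher in 6 of 6 pairs). With both portions as a random block it was 0.82 ± 0.38 and was not called. Without P60 deaf apex replicate 1 it was 1.01 ± 0.23 (adjusted p = 0.0457 by limma), and this was the only 1 of 24 left-out samples that gave a call. At P32 it was 0.46 ± 0.24 (adjusted p = 1), with 8.29 to 9.33 in deaf ganglia and 8.13 to 8.57 in hearing ganglia. Macrophage and T cell markers moved the same way. All 12 measured of 14 were above 0 at P60, with a median of 1.20 and 7 of them called. With both portions as a random block, 3 genes among all genes were called higher at P60, against 68 in the main fit. At most 3 of the 7 marker calls could thus be kept there. At P32 all 12 were above 0, with a median of 0.37 and 0 called by limma. Their list mean was 12.40 to 13.06 in P60 deaf ganglia, against 10.77 to 12.29 in P60 hearing ganglia. At P32 the groups overlapped, with 12.05 to 12.87 in deaf ganglia and 11.05 to 13.07 in hearing ganglia. The part of these cells in the Kcnn4 difference was not tested.

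The other members with an unadjusted p under 0.05 at P60 were lower in deaf ganglia. Kcnk1, a leak channel, had −0.75 ± 0.29, with 11.18 to 13.24 in deaf ganglia (median 12.11) and 11.89 to 13.75 in hearing ganglia (median 12.97), lower in 6 of 6 pairs. Kcnma1, the large-conductance calcium-activated channel also found in hair cells, had −0.63 ± 0.25, with 8.57 to 9.73 (median 9.19) and 8.98 to 10.52 (median 9.71), also lower in 6 of 6 pairs. Kcnc1 had −1.02 ± 0.48, lower in 5 of 6 pairs. Their adjusted p values were 0.275, 0.301 and 0.387 by limma, and none passed. At P32 Kcnk1 had −0.43 ± 0.29 (−0.69 ± 0.26 without P32 hearing apex replicate 1), Kcnma1 −0.07 ± 0.25 and Kcnc1 −0.83 ± 0.48.

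Among voltage-gated pore subunits, 6 of 8 were below 0 at P60 (median −0.43) and 7 of 8 at P32 (median −0.29). Kcnc2, a relative of Kcnc1, had −1.02 ± 0.50 at P60. Kcna1 had −0.23 ± 0.16 and Kcna2, its partner in myelinated axons, −0.59 ± 0.43, which was lower in 6 of 6 pairs. The beta subunits that bind Kcna channels had −0.74 ± 0.47 for Kcnab1, −0.98 ± 0.53 for Kcnab2 and 0.19 ± 0.29 for Kcnab3. None of these passed.

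Kcnk13, a leak channel of microglia, had 0.51 ± 0.26 at P60 and 0.37 ± 0.26 at P32 (adjusted p = 0.442 and 1 by limma), higher in 6 of 6 pairs at P60. The silent subunit Kcns1 had −0.16 ± 0.40 at P60 and −0.70 ± 0.40 at P32. Kcnq3, a subunit of the slow M-current, had −0.09 ± 0.26 at P60 and 0.28 ± 0.26 at P32. Kcnj13 and Kcnip1, which differed between base and apex, had 0.33 ± 0.34 and 0.18 ± 0.29 between P60 deaf and hearing ganglia.

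**Figure D4:**
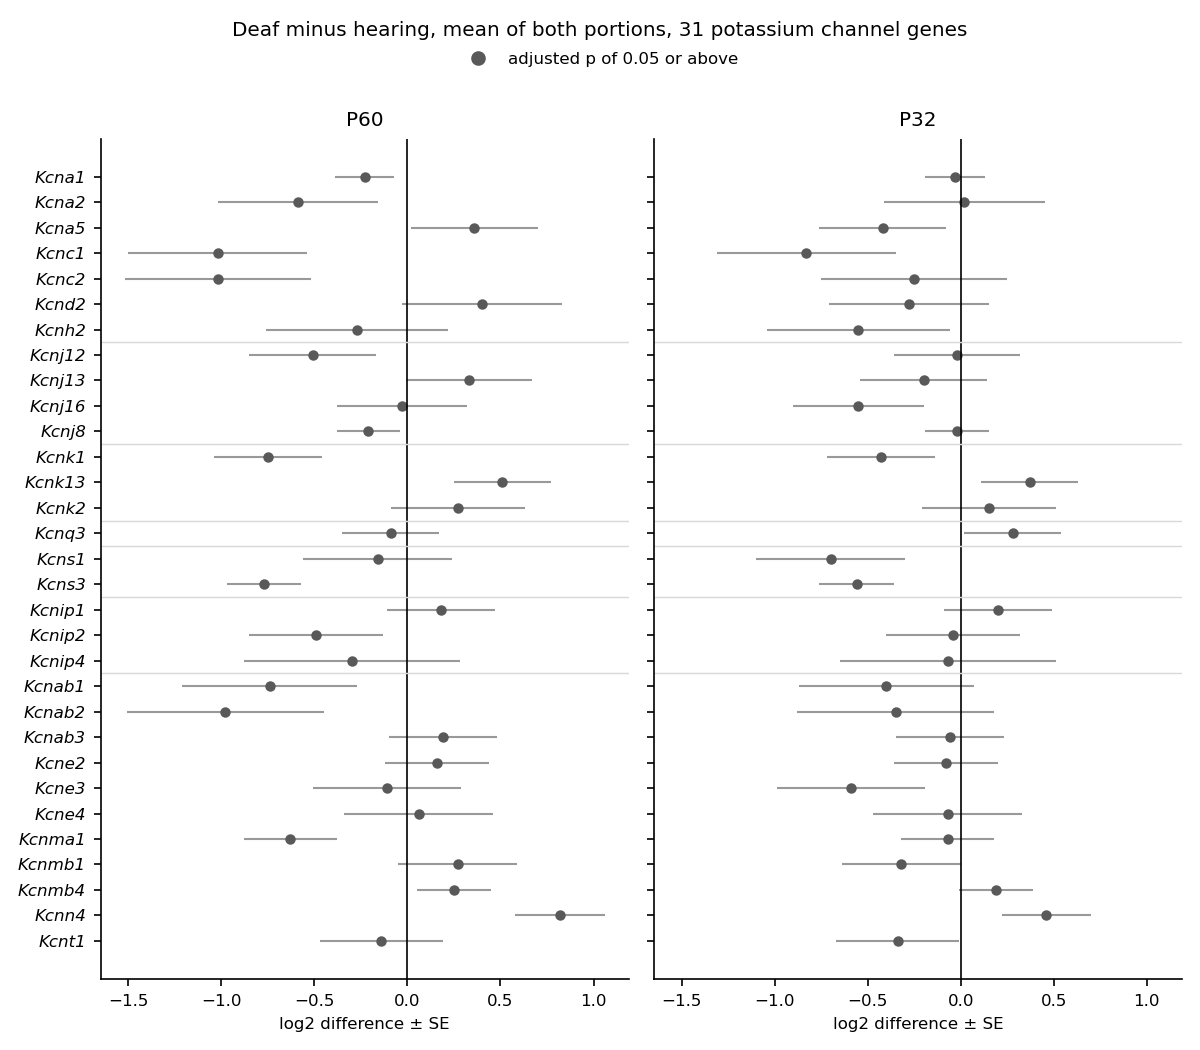
Deaf minus hearing difference (log2, horizontal axis, bars are SE) for 31 of the 32 genes, grouped by subfamily, at P60 (left) and P32 (right). No gene passed the adjusted threshold of 0.05, and Kcns3 is left of 0 at both ages (−0.77 and −0.56).

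Over all members 20 of 32 were below 0 at P60 (median −0.15) and 25 of 32 at P32 (median −0.14), against 45.4% and 55.2% of all genes (medians 0.04 and −0.02). The sign was the same at both ages for 23 of 32 members (71.9%) and for 63.7% of all genes. Neuron markers were below 0 for 19 of 20 at P60 (median −0.38) and for 20 of 20 at P32 (median −0.26), with 0 called by limma at either age. Their list mean was 11.72 to 12.48 in P60 deaf ganglia, against 12.30 to 12.97 in P60 hearing ganglia, and 11.52 to 12.53 in P32 deaf ganglia, against 12.10 to 12.66 in P32 hearing ganglia. Their part in the channel differences was not tested.

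The 3 measured hair cell markers did not move together. Ocm, the calcium buffer of outer hair cells, had −3.60 ± 1.0 in P60 and −4.69 ± 1.0 in P32 deaf over hearing ganglia (adjusted p = 0.0913 and 0.162 by limma), the unconventional myosin Myo7a had 0.74 ± 0.41 and 0.08 ± 0.41, and the actin bundler Espn had 0.19 ± 0.34 and 0.06 ± 0.34. None was called. Their list mean was 7.21 to 8.82 log2 units in P60 deaf ganglia, against 7.79 to 9.74 in P60 hearing ganglia, and 7.27 to 9.35 in P32 deaf ganglia, against 8.52 to 10.63 in P32 hearing ganglia. The part of hair cell RNA in the Kcnma1 difference was not tested. Central glia markers were above 0 for 6 of 7 at P60 (median 0.50) and below 0 for 7 of 7 at P32 (median −0.28), with 0 called by limma at either age. The astrocyte filament gene Gfap had 1.51 ± 0.46 at P60 (adjusted p = 0.131). Schwann cell markers (14 of 15 measured) had a median of 0.08 at P60 and −0.05 at P32, and those of vessels (5 of 9) had 0.12 and −0.22. Blood markers (5 of 7) had 0.35 at P60 and −0.06 at P32, bone markers (6 of 9) 0.29 and 0.12, and skeletal muscle markers (3 of 7) −0.58 and −0.33. The 4 measured markers of cochlear epithelium (of 10) had 0.07 and −0.04, and the 4 of stria vascularis (of 14) 0.12 and −0.01. Of the genes in these lists, Myl1, a muscle myosin light chain, alone was called (lower in P60 deaf ganglia).

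The deafness difference was also taken within each portion. In the P60 apex, where 0.504% of all genes passed, no member did, and Kcnn4 had 1.06 ± 0.34, Kcns3 −0.81 ± 0.28 and Kcnk1 −0.93 ± 0.41. In the P60 base, where 0.0696% passed, no member did, and Kcns3 had −0.72 ± 0.28 and Kcnn4 0.57 ± 0.34. At P32 no gene passed in either portion, with 149 genes in the apex and 44 in the base at an unadjusted p under 0.05 by limma. Kcns3 had −0.46 ± 0.28 in the P32 apex (−0.92 ± 0.22, adjusted p = 0.116 by limma, without P32 hearing apex replicate 1) and −0.65 ± 0.28 in the P32 base. The deafness effect differed between ages for 0 members and between portions for 0 members, and no gene passed in these 2 tests (119 and 29 genes had an unadjusted p under 0.05 by limma).

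Ages were compared within each condition. No member passed between P60 and P32, where 0.104% of all genes did in deaf and 0.087% in hearing rats. Kcnmb1, an accessory subunit of Kcnma1 channels in smooth muscle, had 1.0 ± 0.32 in deaf ganglia (adjusted p = 0.632 by limma), with 9.70 to 11.09 at P60 (median 10.49) and 8.49 to 10.64 at P32 (median 9.22). In hearing ganglia it had 0.41 ± 0.32. Kcnip1 had 0.60 ± 0.29 in deaf and 0.63 ± 0.29 in hearing ganglia (adjusted p = 0.875 and 0.643), with a positive sign in 6 of 6 pairs in each. Without P32 hearing apex replicate 1, its lowest sample, the hearing value was 0.37 ± 0.26 (adjusted p = 0.973 by limma).

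In hearing ganglia Kcnn4 had −0.59 ± 0.24 and Kcnab1 1.0 ± 0.47 between P60 and P32, each with the same sign in 6 of 6 pairs, and −0.42 and 0.69 without P32 hearing apex replicate 1. In deaf ganglia they had −0.23 ± 0.24 and 0.66 ± 0.47. Macrophage and T cell markers were below 0 for 12 of 12 in hearing ganglia (median −0.52) and above 0 for 10 of 12 in deaf ganglia (median 0.23), and blood markers were below 0 for 5 of 5 in both (medians −1.71 in hearing and −1.27 in deaf ganglia), with 0 called by limma. Their part in the Kcnn4 difference was not tested.

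Proteins that act with potassium channels but carry other symbols were counted too. Of 29 such partners 13 were in the table, and none passed between base and apex or between deaf and hearing ganglia. At P60 9 of 13 were below 0 in deaf ganglia (median −0.28), with Abcc8, the sulfonylurea receptor of channels closed by ATP, at −0.76 ± 0.35 and Dpp10, a Kcnd accessory protein, at −0.78 ± 0.40. Between base and apex 11 of 13 in deaf and 12 of 13 in hearing rats were below 0, and Dpp10 had −0.98 ± 0.40 in deaf ganglia.

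Of 26 genes for potassium and chloride transport and gap junctions 21 were in the table, and none passed in these comparisons. Fxyd7, a regulator of the sodium-potassium pump in neurons, had 0.86 ± 0.23 in P60 deaf over hearing ganglia (adjusted p = 0.0792 by limma). Gja1, the main connexin of astrocytes, had 2.34 ± 0.68 in deaf base over apex (adjusted p = 0.103) and 1.69 ± 0.68 in hearing base over apex (adjusted p = 0.361). The list median was 0.15 at P60 and −0.05 at P32 in deaf over hearing ganglia.

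Much of the spread of several members followed the replicate number rather than the group. Replicate number went with more of the variance over 24 samples than the 8 groups did for 8 of 32 members. For Kcnmb4, a neuronal accessory subunit of Kcnma1 channels, it was 56.8%, with means of 10.93, 11.80 and 11.55 log2 units in replicates 1, 2 and 3 and 15.7% with group. Kcnma1 itself had 55.7% with replicate number and 30.3% with group, Kcnip2 had 55.4% and 9.85%, and Kcnt1, a sodium-activated channel, had 53.2% and 11.7%. For Kcnma1 the means were 9.14, 10.03 and 9.30 log2 units in replicates 1, 2 and 3, so replicates 2 and 3, which share a platform, differed by more than replicates 1 and 3, which do not. The medians over members were 20.5% with replicate number and 34.1% with group. These 2 shares are not on the same scale, since 8 groups take up more variance than 3 replicate numbers even without any effect. No share over all genes is given. Kcnj13 had 73.3% with group and Kcnip1 66.0%.

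**Figure D5:**
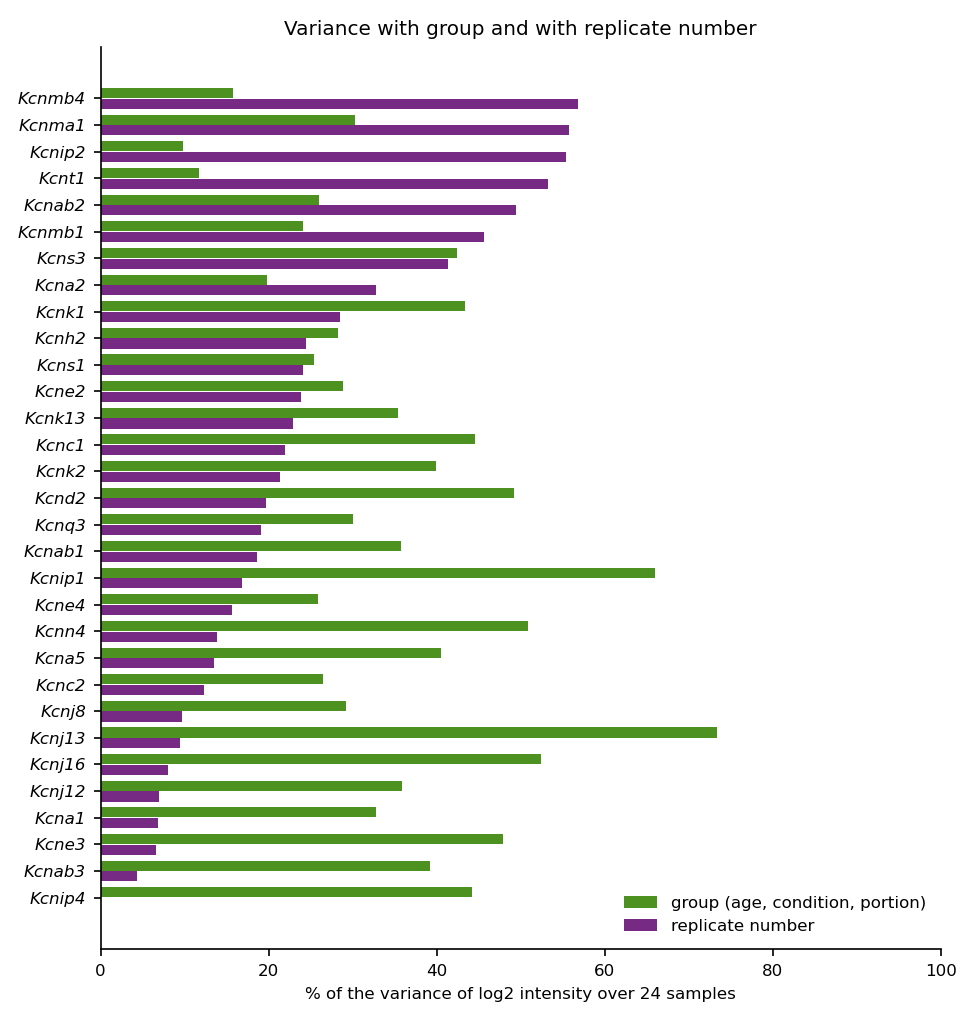
Share of the variance of log2 intensity over 24 samples (%, horizontal axis) that goes with the 8 groups (green) and with replicate number (purple) for 31 of the 32 genes, ordered by the share with replicate number. Kcnmb4 is at the top with 56.8% for replicate number, and Kcnj13 has the longest group bar at 73.3%.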

How the data were processed

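Total RNA of 24 spiral ganglion samples was amplified, copied to cDNA and hybridised to 1-colour arrays. The deposited values are linear intensity values, which the authors normalized with RMA (per the submitters' processing notes, version not given in the sources used here), and technical replicates were averaged per the labels. The sources used here do not give whether platforms were normalized together, nor which rule chose the 14138 transcripts of the series table among the 26419 of the platform tables. A RefSeq table (GRCr8, names only) named 5828 transcripts. The brightest transcript by mean stood for each of 5750 genes, and log2 was taken.

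Limma 3.58.1 in R 4.3.3 was fitted to all 24 samples with 8 group means and platform as an additive term (15 residual degrees of freedom). It was run on simulated data with independent errors and a platform shift. Those data held no correlation of portions and no effect of replicate number, so they cannot check the p-values against either. Over 5750 genes adjusted p is by Benjamini-Hochberg, with a threshold of 0.05, for 12 comparisons. The members and gene lists were chosen with earlier results of these data known. Full statistics are given for members that passed and for the 5 with the smallest p in a comparison. Values of some genes, 1 member among them, are not reported here. Marker lists for Schwann cells, cochlear epithelium, stria vascularis, bone, muscle, vessels and blood were also computed.

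Same-numbered samples correlated above 0.1 (deviations from group means) in every pair for 10 of 12 pairs of groups. The exceptions were P60 deaf apex against P60 deaf base (lowest −0.02) and against P60 hearing apex (lowest −0.09). The labels do not say what a number marks, nor that replicates are separate animals, so p-values measure the spread between samples. Counts of pairs with the same sign only describe the samples, and no share over all genes is given for them. Alternatives were the larger platform alone, no platform term, a replicate block, both portions as a random block, quantile normalization, an offset of 100, dim genes left out, the mean of transcripts, all transcripts, the platform tables, and each sample left out in turn.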

Additional observations from a re-analysis of the deposited data

Results flagged for a closer look

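Kcnj16 had deaf over hearing differences of opposite sign in the portions of the P60 ganglion. Neither difference was called, and deaf and hearing samples of Kcnj16 overlapped in both portions. Deaf over hearing Kcnj16 was 0.48 ± 0.49 in the base, higher in 3 of 3 pairs, and −0.53 ± 0.49 in the apex, lower in 3 of 3 pairs (SE of limma, n = 3 each). It had 10.84, 11.42 and 10.32 log2 units in the P60 deaf base, against 10.56, 10.34 and 10.24 in the P60 hearing base, and 9.27, 8.96 and 9.34 in the P60 deaf apex, against 10.13, 9.15 and 9.90 in the P60 hearing apex. The difference at P60 alone was not tested, and averaged over both ages it was 0.72 ± 0.49 (adjusted p = 1 by limma).

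Kcnk10, a leak channel that is in the platform tables and not in the series table, was lower in P60 deaf than hearing ganglia when all 9627 genes of those tables were fitted. The difference was −0.92 ± 0.19 (adjusted p = 0.023 by limma), with 6.78 ± 0.53 log2 units in deaf and 7.70 ± 0.43 in hearing ganglia (SD, n = 6 each). That fit called 65 genes higher and 8 lower, and Kcnk10 alone of the 44 Kcn genes outside the series table. A fit with both portions as a random block was not run for Kcnk10. Whether values this dim stand above the arrays' background was not tested.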

How the results depend on the processing

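The 60 results for single members kept their direction and their side of the threshold in 1968 of 2006 recomputed values. Only 1 changed sign: the deafness effect of Kcnip1, base minus apex, was 0.04 on the larger platform alone and −0.29 with all samples, neither called, and the cause was not tested. For deaf base over apex 2 members were called, against 0 on the larger platform alone (16 samples), 1 without the platform term, with quantile normalization, with dim genes left out (a filter that removes Kcnip1) or over all 14138 transcripts, and 8 with portions as a random block. For hearing base over apex 1 was called, against 0 on the larger platform alone and 3 with portions as a random block. With 1 sample left out, the count ran from 1 to 2 in deaf base over apex, 1 to 3 in hearing base over apex, and 0 to 1 for deaf over hearing at P60, in the P60 apex and at P32. For P60 deaf over hearing the replicate block called 2 members, Kcns3 (−0.77 ± 0.18, adjusted p = 0.0363 by limma) and Kcnma1 (−0.63 ± 0.15, adjusted p = 0.0363), and 3.1% of all genes. In the other 11 comparisons the block changed no call of a member. Quantile normalization moved 2 of 256 group means by over 1 SD and an offset of 100 moved 43, by up to 0.83. The files hold no background probes, so how far dim members stand above background was not tested.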
